A study of Arabidopsis thaliana with 16 samples.

Results

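Plant cells watch the state of their own walls through receptors at the cell surface. THESEUS1 (THE1) is a receptor kinase of the CrRLK1L family, whose malectin-like outer domains face the wall, and it is known because its loss relieves the growth arrest of mutants that make too little cellulose. MIK2, a leucine-rich repeat receptor kinase, is known as a receptor of SCOOP peptides and as a gene needed for normal responses to isoxaben. LRX4 and LRX5 are leucine-rich repeat extensins, secreted proteins that are anchored in the wall by an extensin domain and that bind RALF peptides, the ligands of several CrRLK1L kinases. These 4 genes are described here, out of 13286 genes that had an array probe set of their own.

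They were chosen by name, with earlier results of these data known, as wall integrity sensors on Affymetrix ATH1 arrays. The probe set had to belong to exactly 1 gene. Each of the 4 had a single such probe set, so no choice between probe sets arose: 248179_at for THE1 (AT5G54380), 255116_at for MIK2 (AT4G08850), 256620_at for LRX4 (AT3G24480) and 254635_at for LRX5 (AT4G18670).

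RNA came from a suspension culture of Arabidopsis thaliana (genotype: ecotype Landsberg erecta) that was shaken in darkness in a medium with a synthetic auxin. On day 3 after sub-culture the cells received 2 µM TA (thaxtomin A, a phytotoxin of potato scab Streptomyces) or 100 nM IXB (isoxaben, a herbicide), both inhibitors of cellulose synthesis, and were frozen 6 h later; the labels give only the abbreviations, and the compound names are general knowledge. Every culture, controls included, received 20 µL of methanol, the solvent, and control cultures received nothing else. Each of the 3 groups had 4 replicates, each pooled from 2 flasks of 100 mL, and 1 array was made for each replicate. A single culture line in a single ecotype stands for the plant here, and its cells form no organs, so the root and shoot settings in which these sensors are mostly studied are absent.

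Levels are log2 values that the authors made with RMA, a method that subtracts background, equalises arrays and condenses each probe set into 1 number. The 4 methanol arrays were processed once with the TA arrays and once with the IXB arrays. Column medians were 4.76 to 4.85 in the first set, called the TA set here, and 5.20 to 5.30 in the second, the IXB set. Levels of the 2 sets are therefore not on 1 scale, and treated arrays were compared only with the methanol arrays of their set. Whether the replicates had separate parent cultures is not stated, and p-values then reflect only the spread between these samples, some of which may be technical. For the same methanol array, the IXB-set value exceeded the TA-set value by 0.26 to 0.35 for THE1, by 0.40 to 0.44 for MIK2, by 0.50 to 0.68 for LRX4 and by 0.20 to 0.63 for LRX5. The 2 versions of an array therefore held nearly the same picture of THE1 and MIK2, and a less stable one of LRX5.

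Few markers of other cell types could be read. Of the defining markers of pollen 4 of 6 were measured, with mean values per array between 2.39 and 2.71 in all groups, and of those of root hairs 2 of 5, between 2.78 and 3.63; 0 of 5 xylem markers were measured. AUR1, an Aurora kinase of mitosis and the 1 measured of 6 markers of dividing cells, stood at 8.55 to 8.71 on the methanol arrays of the TA set. RCA, the 1 measured of 6 photosynthetic markers, stood at 9.06 to 9.18 on those arrays although the cells were kept in the dark.

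THE1 was the 1 sensor of the 4 whose transcript changed past the test when replicate numbers were not used as a block, and it rose with IXB. With methanol its log2 values in the IXB set were 7.71, 8.12, 8.03 and 7.88 for replicates 1 to 4, and with IXB they were 8.46, 8.63, 8.20 and 8.60. All 4 IXB arrays lay above all 4 methanol arrays, with the lowest IXB array (replicate 3) close to the highest methanol array (replicate 2). The mean went from 7.94 ± 0.18 to 8.47 ± 0.20 (SD, n = 4), a rise of 0.53 log2 (SE 0.11), or 1.45-fold with a 95% confidence interval of 1.22 to 1.72, and limma's adjusted p over all 22746 probe sets was 0.0255. A change of at least this size in either direction was seen for 1.44% of probe sets. In bulk RNA, a larger share of cells that express THE1 and more of its RNA in each cell cannot be told apart.

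Of the 4 members, 1 was called with IXB and 3 were not, where 3.01% of all probe sets were called. With the replicate number as a block, MIK2 was called as well, which makes 2 of 4, against 3.58% of all probe sets. All IXB arrays lay above all methanol arrays for 1 of the 4 members, and for 5.35% of all probe sets. The call of THE1 rests on few arrays: it was lost in 5 of the 8 fits that left out 1 array, without methanol replicate 1 or 4 or without IXB replicate 1, 2 or 4 (limma adjusted p of 0.0742, 0.0738, 0.0632, 0.0866 and 0.0700), while the difference stayed between 0.46 and 0.63 log2. With an ordinary linear model in place of limma's moderated variance the adjusted p was 0.150.

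With TA the values of THE1 shifted less. Its methanol values in the TA set were 7.45, 7.83, 7.68 and 7.54, and its TA values 7.76, 7.77, 7.88 and 8.24. TA replicate 4 stood well above the others, and TA replicates 1 and 2 lay below methanol replicate 2, so the groups overlapped. The means were 7.63 ± 0.17 with methanol and 7.91 ± 0.23 with TA (SD, n = 4), a difference of 0.29 log2 (SE 0.12) that did not pass (limma adjusted p = 0.156, unadjusted p = 0.0285). The interval of the difference, 0.04 to 0.54 log2, is that of this gene alone, with no allowance for the other probe sets tested.

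**Figure D1:**
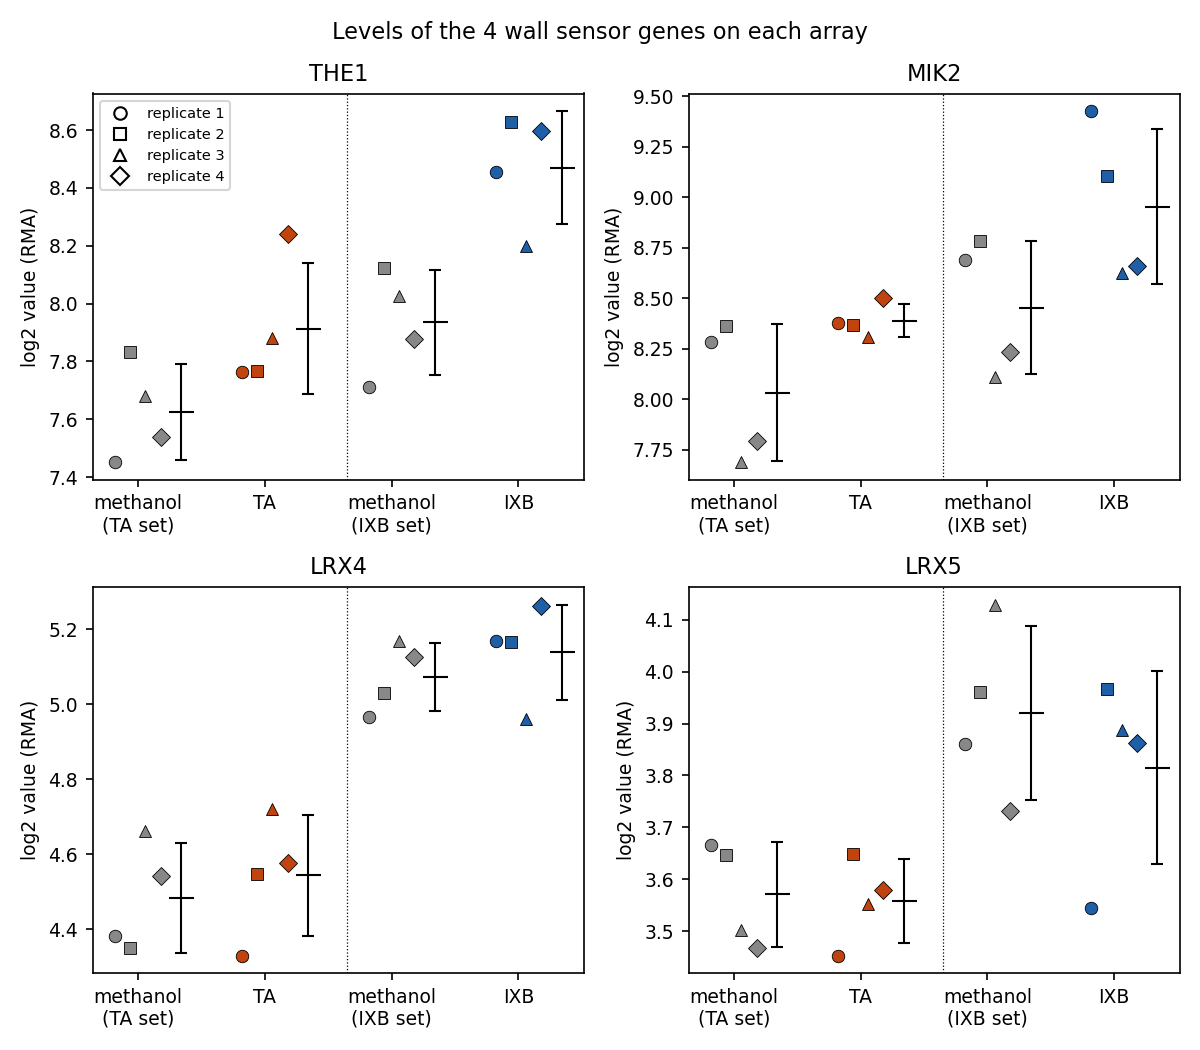
Log2 values (vertical axis, a separate scale for each gene) of THE1, MIK2, LRX4 and LRX5 on every array by group, with marker shapes for replicate numbers and bars for the mean ± SD of 4 replicates. The dotted line parts the TA set from the IXB set, whose levels are not on 1 scale; the 4 IXB values of THE1 (8.20 to 8.63) sit above its 4 methanol values of that set (7.71 to 8.12), and the groups of the other genes overlap.

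MIK2 stood apart from the other members in how much it varied between replicates. In the IXB set its methanol values were 8.69, 8.78, 8.11 and 8.23, and its IXB values 9.43, 9.10, 8.63 and 8.66. Replicates 1 and 2 were the high ones in both groups and replicates 3 and 4 the low ones, and the 2 low IXB arrays lay below the 2 high methanol arrays. The methanol SD was 0.33 and the IXB SD 0.38 (n = 4), where the median probe set had 0.12 and 0.11, and 1.86% and 1.01% of probe sets varied more.

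The mean of MIK2 was 8.45 with methanol and 8.95 with IXB, a difference of 0.50 log2 (SE 0.19) that did not pass (limma adjusted p = 0.198, unadjusted p = 0.0213). The same-numbered arrays differed by 0.74, 0.32, 0.52 and 0.43 log2, above 0 for 4 of 4. With the replicate number as a block the standard error no longer holds this shared spread, and the same difference of 0.50 log2 passed with limma's adjusted p = 0.00940. The labels give no meaning to the numbers. The pairing is read from the arrays themselves, on which same-numbered methanol and IXB arrays deviated together to a small degree (correlations of 0.101 to 0.147). For 2 of the 4 methanol arrays the best match among the IXB arrays had the same number, as for 2 of 4 with TA.

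**Figure D2:**
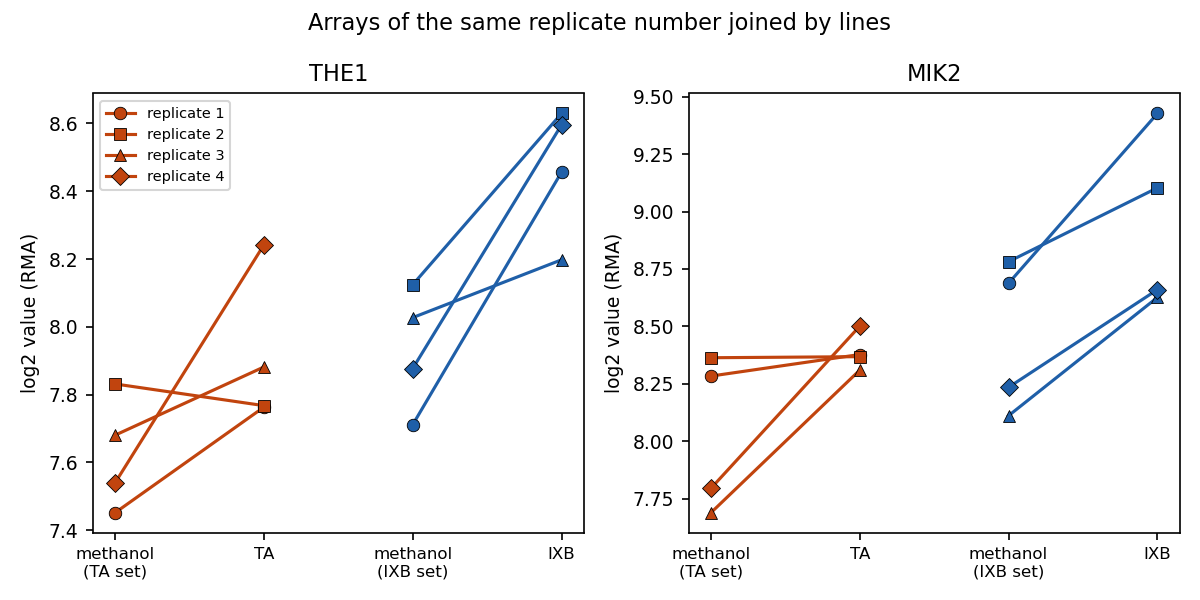
Log2 values of THE1 and MIK2 (vertical axes) with methanol and with TA (left) or IXB (right), with a line joining arrays of the same replicate number. For MIK2 with IXB the 4 lines rise by 0.32 to 0.74 log2, and replicates 1 and 2 stay above replicates 3 and 4; with TA the lines of replicates 1 and 2 are nearly flat.

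With TA the picture of MIK2 was another one. Its methanol values were 8.28, 8.36, 7.69 and 7.79, and its TA values 8.38, 8.37, 8.31 and 8.50. The 4 TA arrays lay within 0.19 log2 of each other, at about the level of the 2 high methanol arrays, and 3 of them lay above all methanol arrays. The TA SD was 0.08 against 0.34 with methanol (n = 4), and 78.1% of probe sets varied more than MIK2 among the TA arrays. The difference of 0.36 log2 (SE 0.14) did not pass (limma adjusted p = 0.133, unadjusted p = 0.0223). The same-numbered arrays differed by 0.09 and 0.00 log2 for replicates 1 and 2 and by 0.62 and 0.71 for replicates 3 and 4, and the block left the call as it was (adjusted p = 0.0897).

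No difference was detected for LRX4, whose probe set was dim. Its values in the TA set were 4.38, 4.35, 4.66 and 4.54 with methanol and 4.33, 4.55, 4.72 and 4.58 with TA. In the IXB set they were 4.97, 5.03, 5.17 and 5.13 with methanol and 5.17, 5.17, 4.96 and 5.26 with IXB. The groups overlapped throughout, and TA arrays were both the lowest and the highest of their set. The difference was 0.06 log2 with TA, with an interval of -0.15 to 0.28 (limma adjusted p = 0.808), and 0.07 with IXB, with an interval of -0.11 to 0.25 (adjusted p = 0.737). The intervals reach up to 1.21-fold and 1.19-fold, so larger increases of the measured signal lie outside them.

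LRX5 was dimmer still. Its values were 3.67, 3.65, 3.50 and 3.47 with methanol and 3.45, 3.65, 3.55 and 3.58 with TA in the TA set. In the IXB set they were 3.86, 3.96, 4.13 and 3.73 with methanol and 3.54, 3.97, 3.89 and 3.86 with IXB. IXB replicate 1 was the lowest of that set, and the other IXB arrays lay among the methanol arrays. The differences were -0.01 log2 with TA, with an interval of -0.18 to 0.16 (limma adjusted p = 0.956), and -0.11 with IXB, with an interval of -0.34 to 0.13 (adjusted p = 0.673). RMA compresses changes of dim probe sets, here those with a mean log2 value under 5 (LRX4 4.81 and LRX5 3.72 over all columns, and 49.7% of all probe sets), so a change in the amount of either transcript could be larger than these values.

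With TA, 0 of the 4 members were called by limma, where 10.1% of all probe sets were called, and 2 (THE1 and MIK2) had an unadjusted p under 0.05, as had 22.5% of all probe sets. The members' median difference was 0.17 log2 with TA and 0.28 with IXB, where the median over all probe sets was -0.01 in both comparisons. Both kinases lay above the methanol mean on 4 of 4 arrays with either compound, and both comparisons use the same 4 methanol arrays.

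TA and IXB were then set against each other, after the methanol mean of the same set had been subtracted from every array. For THE1 these deviations were 0.14, 0.14, 0.26 and 0.62 with TA and 0.52, 0.69, 0.26 and 0.66 with IXB. The order of the means was methanol, TA, IXB, but TA and IXB overlapped, and the difference of -0.25 log2 for TA minus IXB had an interval of -0.50 to 0.01 (limma adjusted p = 0.273). MIK2 had the same order, with means of 0.36 with TA and 0.50 with IXB, and a difference of -0.14 with an interval of -0.50 to 0.21 (adjusted p = 0.692). For LRX4 the difference was -0.01 (interval -0.20 to 0.19) and for LRX5 0.09 (interval -0.10 to 0.28). Of the 4 members 0 were called in this comparison, where 4.77% of all probe sets were called. An unadjusted p of limma under 0.05 was found for 0 of the 4 and for 19.6% of all probe sets. The intervals leave room for differences of about 0.50 log2 between the compounds for both kinases, so it is not shown that the compounds acted alike on them, nor that THE1 responded to IXB alone. The doses differed, 2 µM against 100 nM.

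**Figure D3:**
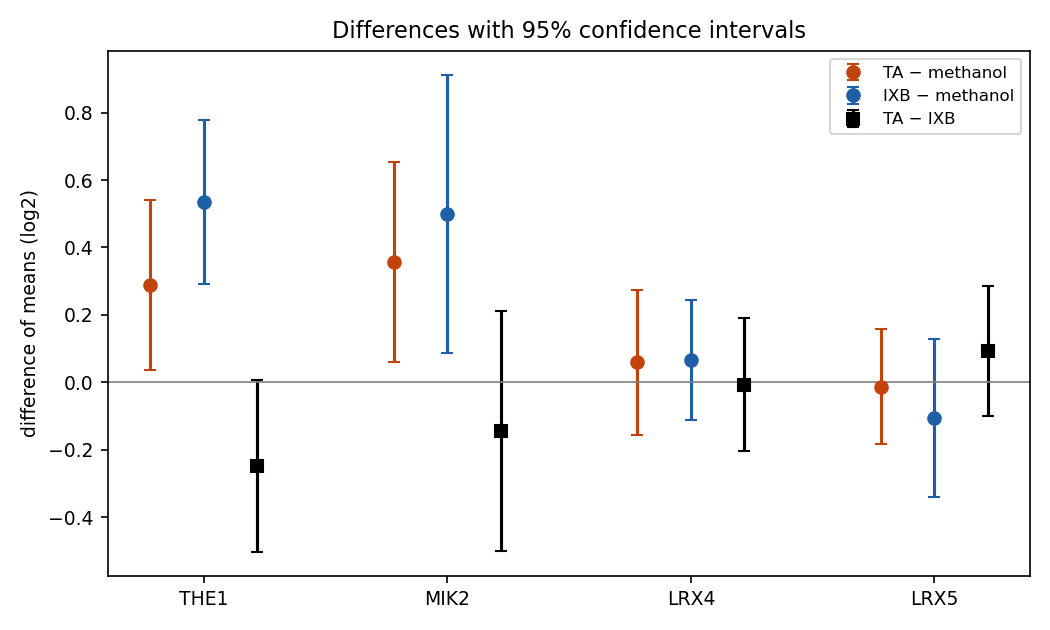
Differences of means in log2 units (vertical axis) for the 4 genes, with limma's 95% confidence intervals for each gene alone: TA minus methanol, IXB minus methanol, and TA minus IXB. The intervals of THE1 and MIK2 against methanol lie above 0, those of LRX4 and LRX5 include 0, and all 4 intervals of TA minus IXB include 0.

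The sensors were then placed among the other genes of wall sensing. Lists of 99 genes, including the members, had been written with earlier results of these data known. Of these genes 36 were measured by a probe set of their own, 24 of them dim, where 49.7% of all probe sets were dim. With TA 2 rose and 1 fell, and 33 did not pass (median 0.04 log2); the called share of 8.33% is near the 10.1% of all probe sets. With IXB 2 rose and 34 did not pass (median 0.07 log2), a called share of 5.56% against 3.01% of all probe sets. THE1 itself is among these 2. Without the members, 1 of 32 measured genes was called with IXB, and 2 rose and 1 fell with TA. Of these 32 genes 10 were not dim, of which 1 rose and 1 fell with TA and 1 rose with IXB. Limma's unadjusted p was under 0.05 for 5 of the 10 with TA and 6 with IXB, rises and falls together. The shares of all probe sets, dim ones included, were 22.5% and 17.3%. With the replicate block 4 of the 36 were called with IXB, where MIK2 and LRX6 joined THE1 and RALF33. The block called 3.58% of all probe sets. The names below other than THE1, FER, BIK1 and those of the RALF genes come from general knowledge of each locus, since the tables give the locus alone.

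Among the CrRLK1L kinases 12 of 17 were measured, and besides THE1 none of the other 11 passed in either comparison without a block. Of all probe sets 10.1% were called with TA and 3.01% with IXB. Limma's unadjusted p was under 0.05 for 1 of the 11 with TA and 1 with IXB. The shares of all probe sets were 22.5% and 17.3%. FERONIA (FER, AT3G51550), the RALF receptor with which LRX proteins work, was named for its role and not by its values. It stood at 9.66, 9.90, 9.86 and 9.75 with methanol and at 10.05, 9.90, 9.82 and 10.05 with TA, a difference of 0.16 log2 (limma adjusted p = 0.285). With IXB its difference was 0.26 log2 (adjusted p = 0.125). FER and THE1 were both higher on average with either compound, but only the difference of THE1 with IXB passed. The remaining 10 kinases ran from -0.39 to 0.17 log2 with TA and from -0.10 to 0.15 with IXB, and 9 of them were dim. They include ANX1 and ANX2, which act in pollen tubes. The lowest of them with TA was AT5G59700, a dim kinase at -0.39 log2 (limma adjusted p = 0.0625). With the replicate number as a block, AT5G59700 was called with TA, a change opposite in sign to that of THE1.

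MIK2 had 3 measured relatives or partners, MIK2-LIKE (AT1G35710), MIK1 (AT4G28650) and MDIS1 (AT5G45840), of which the last 2 act with MIK2 in pollen tube attraction. All 3 were dim and did not pass, with differences between -0.01 and 0.15 log2 with TA and between -0.14 and 0.13 with IXB.

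Another leucine-rich repeat extensin passed the test with TA; its difference was not tested against those of LRX4 and LRX5. LRX6 (AT3G22800) rose with TA from 4.10, 4.04, 4.39 and 4.18 with methanol to 5.03, 4.89, 5.32 and 4.92. All 4 TA arrays lay above all methanol arrays, as they did for 7.45% of all probe sets. The rise was 0.86 log2 (SE 0.11), or 1.82-fold (limma adjusted p = 1.91e-04). With IXB the values went from 4.80, 4.69, 4.99 and 4.62 to 4.93, 5.10, 5.43 and 5.30, a difference of 0.42 log2 that did not pass (adjusted p = 0.0781). It passed with the replicate number as a block (0.0352), with array weights (0.0345), and without methanol replicate 3 or IXB replicate 1 (0.0447 each). TA exceeded IXB by 0.44 log2 (adjusted p = 0.0389), a call lost in 7 of 12 fits that left out 1 array (adjusted p up to 0.112; without methanol replicate 1 or 2, TA replicate 1 or 3, or IXB replicate 1, 2 or 4), after quantile normalization again (0.0615) and after median centring (0.0631). LRX6 was itself dim with methanol. The other 5 measured LRX and PEX genes besides the members ran from -0.11 to 0.11 log2 with TA and from -0.19 to 0.11 with IXB. Limma called 0 of them with either compound, against 10.1% of all probe sets with TA and 3.01% with IXB. Its unadjusted p was under 0.05 for 0 of them, against 22.5% and 17.3% of all probe sets.

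Of the peptide ligands 6 of 15 were measured, and RALF33 (AT4G15800), a ligand of FER, rose with both compounds. Its values went from 9.80, 9.73, 9.43 and 9.76 with methanol to 10.33, 10.40, 10.29 and 10.34 with TA, a rise of 0.66 log2 (SE 0.09, limma adjusted p = 3.44e-04). In the IXB set they went from 10.21, 10.11, 9.89 and 10.06 to 10.62, 10.38, 10.54 and 10.41, a rise of 0.42 log2 (SE 0.09, adjusted p = 0.0237). In both sets the treated arrays lay above all methanol arrays. The IXB call was lost without methanol replicate 4, IXB replicate 1 or IXB replicate 3 (adjusted p of 0.0654, 0.0701 and 0.0618). RALF34 (AT5G67070), known as a ligand of THE1 and named for that role, did not pass with either compound: it stood at 6.54 ± 0.08 with methanol and 6.35 ± 0.09 with TA (SD, n = 4), a difference of -0.19 log2 (adjusted p = 0.151), and its difference with IXB was -0.08 log2 (adjusted p = 0.640).

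Among the remaining lists the 1 call was a decrease. PIEZO (AT2G48060), a mechanosensitive channel, went from 5.56, 5.83, 5.62 and 6.10 with methanol to 5.32, 5.43, 5.18 and 5.38 with TA and fell by 0.45 log2 (SE 0.11, limma adjusted p = 0.0220). Leaving out methanol replicate 2, methanol replicate 4, TA replicate 1 or TA replicate 3 ended the call (adjusted p between 0.0530 and 0.0702). With IXB the difference of PIEZO was -0.31 log2 (adjusted p = 0.109). All 4 treated arrays lay below all 4 methanol arrays with TA and with IXB. The share of all probe sets with this downward separation was not counted. The wall-associated kinase WAKL14 (AT2G23450) was at 0.17 log2 with TA and 0.27 with IXB, and BIK1, a cytoplasmic kinase that relays receptor signals, at -0.002 and 0.12, and neither passed. No measured gene stood for the LORELEI-like co-receptors of the CrRLK1L kinases.

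A further set of transcripts moved with TA. A list of 35 low-oxygen response genes, also written with earlier results of these data known, had 20 measured members. Of these 16 rose with TA, where 10.1% of all probe sets were called. With IXB limma called 0 of the 20, where 3.01% of all were called, and gave an unadjusted p under 0.05 for 5 of them and for 17.3% of all probe sets. Their mean lay between 0.91 and 1.28 log2 above the methanol mean on the TA arrays, between -0.47 and 0.79 on the IXB arrays and between -0.42 and 0.31 on the methanol arrays. Their part in the changes of LRX6, RALF33 and PIEZO with TA was not tested.

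**Figure D4:**
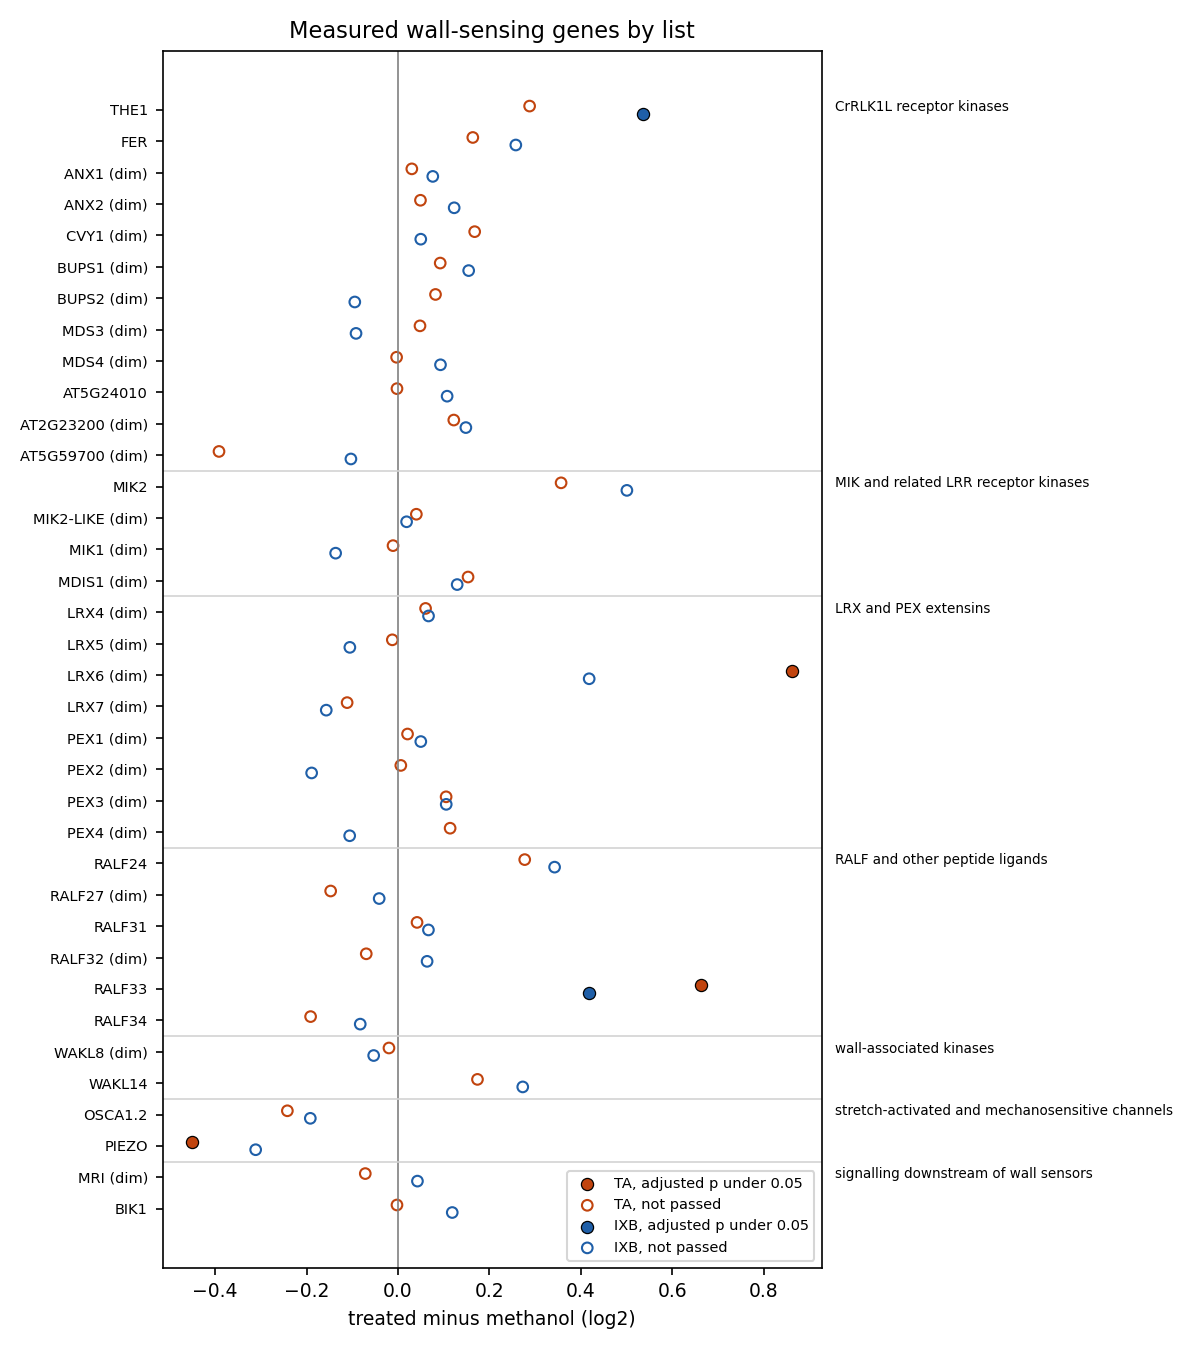
Treated minus methanol in log2 units (horizontal axis) for each measured wall-sensing gene, grouped by list, with filled points for an adjusted p under 0.05 and "dim" for a mean log2 value under 5. The filled points are THE1 and RALF33 with IXB (0.53 and 0.42) and LRX6, RALF33 and PIEZO with TA (0.86, 0.66 and -0.45).

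The genes whose pattern over the 12 arrays was most like that of each member were found by Pearson's correlation among 6084 genes for the kinases and 6085 for the extensins, leaving out dim probe sets. The arrays share their groups and the methanol mean, and the values are a description. For THE1 they were AT5G01710 (r = 0.87), AT4G14360 (0.86) and FER (0.86), so a member of its own kinase family stood among the closest 3. After the group means were taken out these correlations were 0.69, 0.63 and 0.66, lower than over the 12 arrays with the group means left in. For MIK2 they were AT5G38710 (0.94), ATL5 (0.93) and AT4G24860 (0.93), and without the group means the correlations were 0.94, 0.96 and 0.92, so these genes shared the replicate differences of MIK2. For LRX4 they were AT4G17940 (0.85), AT5G19500 (0.83) and AT1G19430 (0.82), and for LRX5 AT5G22340 (0.89), AT1G01910 (0.84) and AT1G80500 (0.79). Without the group means they were 0.87, 0.86 and 0.90 for LRX4 and 0.87, 0.82 and 0.80 for LRX5. The likeness to these 2 dim members thus lay in differences between arrays of the same group. Of these 12 genes, AT5G38710 rose with TA (0.65 log2, limma adjusted p = 0.0219) and AT4G14360 with IXB (0.37 log2, adjusted p = 0.0376), and the other 10 passed in neither comparison.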

How the data were processed

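RMA, which the submitters' processing notes name without version or settings, gave the deposited log2 values of 16 columns; scanner files were not used here, and the scale was read from the range of the values. The table has 22810 probe sets; 64 are Affymetrix controls, and the other 22746 were tested. The annotation lists 14016 of them, 13513 with exactly 1 gene, and 13436 of these matched a TAIR10.1 locus, standing for 13286 genes. No genome build is named, so no coordinates are given, and no sequence table was used. Members and gene lists were chosen with earlier results of these data known; the names of loci that the tables do not name come from general knowledge.

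The fits used limma 3.58.1 and R 4.3.3 (lmFit, then eBayes, two-sided, Benjamini-Hochberg over all probe sets, threshold 0.05). TA against IXB used 12 arrays as deviations from methanol, the 2 versions of a methanol array averaged. Genes named by rule besides the members were, for each list, up to 4 that passed, or else the 1 with the largest change. The 3 most like each member were also named, and FER and RALF34 were added for their roles. Named outside these rules were the relatives or partners MIK2-LIKE, MIK1, MDIS1, ANX1 and ANX2 and the markers AUR1 and RCA. AT5G59700 and RALF24 were named for their calls with the block. Where several single-gene probe sets stood for a gene, the brightest was used. The code was tested on simulated data. Figures were drawn in Python 3.11.15 with matplotlib 3.10.9.

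Deviations of same-numbered arrays from their group means correlated at 0.101 to 0.147 for methanol and IXB, each above 0.1. For methanol and TA they correlated at -0.06 to 0.29. The main fits used no block for either compound, and fits with the replicate number as a block are given as an alternative. No label states a pairing, and in each set the best match of 2 of the 4 methanol arrays had their own number.

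Alternatives were a replicate block, other eBayes priors, array weights, an ordinary linear model, other thresholds, filters and normalizations, other sets of arrays, an exact permutation test and leaving out each array.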

Additional observations from a re-analysis of the deposited data

Results flagged for a closer look

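BIK1 had a value of 8.42 log2 on methanol replicate 3 of the TA set, where the nearest of the other methanol arrays stood at 8.66 and the highest at 8.70; its gap took 0.859 of the group's range, above Dixon's 95% critical value for 4 samples. Among 44 groups of 4 arrays (11 named genes in 4 groups) this was the 1 such value, and chance gives about 5% of groups. The 4 members had none.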

How the results depend on the processing

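The differences of THE1 and MIK2 against methanol kept their sign under all alternatives run, and their calls changed only as follows. THE1 with IXB (0.53) lost its call with an ordinary linear model (adjusted p = 0.150) and at a threshold of 0.01, and in 5 of 8 fits without 1 array, where it ran from 0.46 to 0.63. MIK2 with IXB (0.50) gained one with a replicate block (adjusted p = 0.00940); the block changed no other call of a member. For TA, deviations of same-numbered arrays correlated at -0.06 to 0.29. There the block gave 5 of 36 wall-sensing genes called in place of 3, and 2497 calls among the 22746 probe sets. AT5G59700, lower by 0.39 log2, and RALF24, higher by 0.28 log2, joined LRX6, RALF33 and PIEZO. Exact two-sided permutation tests, unadjusted, gave p = 0.0286 for THE1 with IXB, the smallest that 4 against 4 arrays allow, and 0.171 for MIK2, and 0.0857 and 0.0571 with TA. Without 1 array, the TA differences ran from 0.18 to 0.36 for THE1, 0.24 to 0.47 for MIK2, 0.00 to 0.13 for LRX4 and -0.047 to 0.023 for LRX5, and the IXB differences from 0.34 to 0.61 for MIK2, 0.03 to 0.13 for LRX4 and -0.17 to -0.01 for LRX5. TA minus IXB ran from -0.36 to -0.19 for THE1, -0.25 to 0.014 for MIK2, -0.066 to 0.065 for LRX4 and 0.00 to 0.14 for LRX5. LRX5 with TA was at 0.012 with array weights, and BIK1 with TA ran from -0.068 to 0.025 without 1 array; the cause of these sign changes near 0 was not tested.

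An ordinary linear model also ended the calls of PIEZO with TA (adjusted p = 0.126), RALF33 with IXB (0.104) and LRX6 between the compounds (0.123), the last also with only the treated arrays (0.0649). Array weights let FER and LRX6 with IXB pass (0.0441 and 0.0345). All calls over the array were 2299, 685 and 1085 for TA, IXB and TA against IXB. They were 1242, 212 and 618 with an ordinary linear model, 1153, 308 and 597 with 1 probe set per gene (fewer probe sets tested), 1207, 242 and 287 at a threshold of 0.01, and 1150 and 1909 for IXB and TA against IXB at 0.1. TA against IXB gave 697 with only the treated arrays, and 4411 with 16 columns normalized together and no centring, where the offset between the sets stays in. Without 1 array the counts ran from 1678 to 2281, 373 to 639 and 486 to 1212, lowest for IXB without methanol replicate 1 and for TA against IXB without IXB replicate 2. Without dim probe sets LRX5 could not be tested, nor LRX4 with TA or between the compounds. No member has another single-gene probe set to try. Signal over background limits what can be said of LRX4 and LRX5.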
